A study of Arabidopsis thaliana with 8 samples.

Results

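Repressor-type AP2/ERF genes encode plant transcription factors that carry an EAR motif (ERF-associated amphiphilic repression). They were chosen by that motif, as ERF3 (AT1G50640), ERF4 (AT3G15210), ERF7 (AT3G20310), ERF8 (AT1G53170), ERF9 (AT5G44210), ERF10 (AT1G03800), ERF11 (AT1G28370), ERF12 (AT1G28360) and RAP2.1 (AT1G46768), with ERF7 and RAP2.1 already known to stand at strong peaks of these data, and they are 9 of the 27444 nuclear protein-coding genes in the gene table. The data are chromatin immunoprecipitation sequencing (ChIP-seq) of Arabidopsis thaliana seedlings harvested whole 7 days after germination, in which GFP-tagged proteins were pulled down on a GFP-binding resin. In the H2B-GFP line the core histone H2B was tagged and driven by the 35S promoter of cauliflower mosaic virus in the Col-0 background (p35S::AtH2B-GFP). In the GBPL3-GFP line the guanylate-binding protein-like GTPase AtGBPL3 was tagged and driven by its own promoter in the gbpl3-5 mutant (pAtGBPL3::AtGBPL3genomic-GFP, line comp2). Each fusion had a pulldown and an input group with 2 replicates each, and the peak list of each pulldown was used. Every list averages all cells of the seedling, and the tagged histone is an added copy under a viral promoter. ChIP-seq gives no expression values, so the tissue was not checked against marker genes.

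AP2/ERF factors bind short promoter elements through the conserved AP2 domain, of which the ERF and DREB branches carry a single copy. ERF proteins take their name from ethylene response and bind the GCC box of defence and hormone genes, while the related DREB proteins bind the dehydration response element of cold and drought genes. An EAR motif turns such a factor into a repressor, because it recruits corepressors such as TOPLESS or SAP18, which bring histone deacetylases to the target gene. RAP2.1 belongs to the DREB branch and the other 8 genes to the ERF branch.

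H2B-GFP peaks lay in the bodies of 8 of the 9 genes in replicate 2 and of 2 of the 9 in replicate 1. The background share of all protein-coding genes with such a peak was 25.2% in replicate 2 and 4.07% in replicate 1. ERF7 and ERF12 had a body peak in both lists, against 3.13% of all protein-coding genes. RAP2.1 was the third gene reached in both when the 1 kb on either side was added, which made 3 of 9 against 4.84%. With these flanks the counts of the single lists were 3 of 9 in replicate 1 (background 5.99%) and 8 of 9 in replicate 2 (background 34.8%). ERF3, ERF4, ERF8, ERF9 and ERF10 had peaks in replicate 2 alone, and ERF11 had none in either list. Because 2 of the members were picked for their H2B peaks, no test was made of these counts. The lists differed 6.32 times in length (1361 and 8608 nuclear peaks), the depth of the libraries is unknown, and a gene without a peak is only a gene at which none was called.

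**Figure D1:**
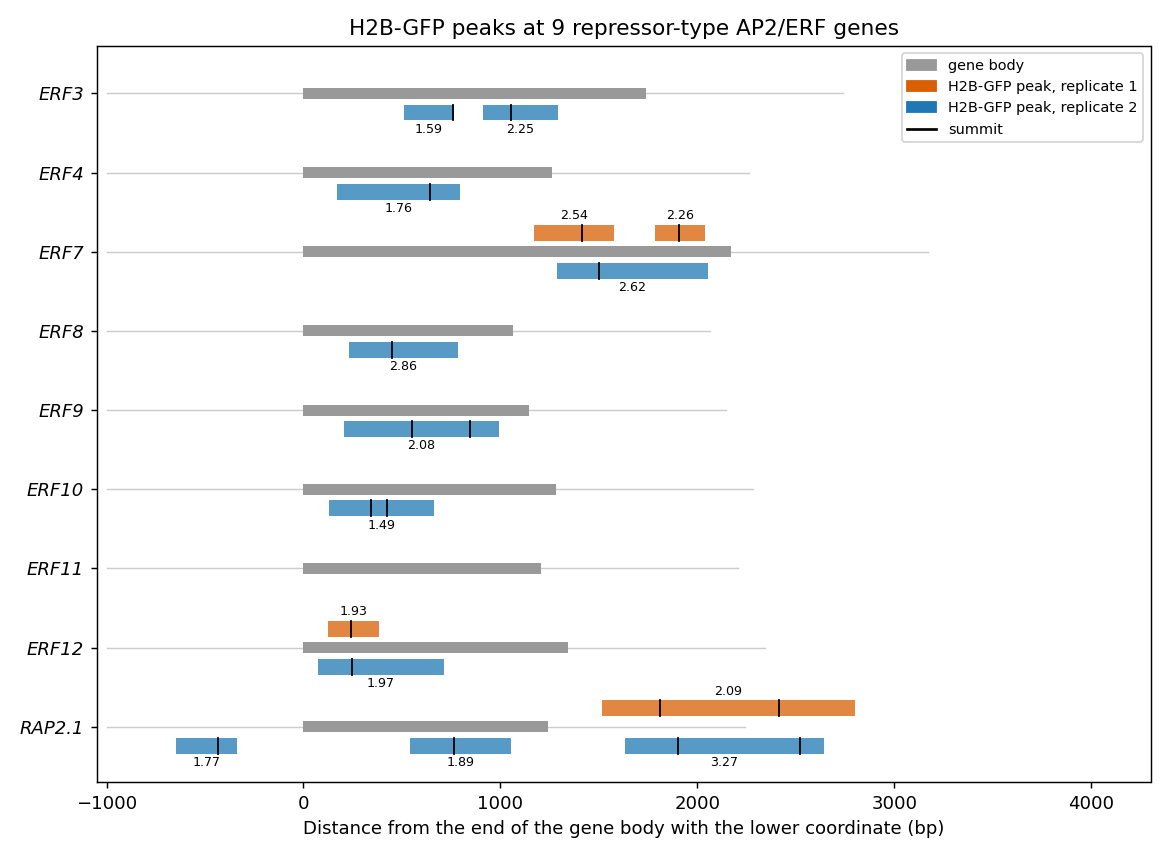
Positions of the H2B-GFP peaks of replicate 1 (above each gene body) and replicate 2 (below it) at the 9 genes, in bp from the end of the body with the lower coordinate, with the thin line reaching 1 kb beyond either end, black ticks at summits and the authors' highest fold beside each peak. Body peaks lie inside the gene rather than across its ends, ERF7 and ERF12 have them in both replicates, ERF11 has none, and the strong RAP2.1 peaks stand beside the body.

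ERF7 (AT3G20310) encodes a repressor of abscisic acid and drought responses that works with a SIN3-type corepressor and the histone deacetylase HDA19. Replicate 1 had 2 peaks in its body on chromosome 3 of the authors' TAIR10 coordinates. The first ran from 7085895 to 7086303, with its summit at 7086140, a fold enrichment over the local background of 2.54 and a −log10 q of 6.80. The second ran from 7086514 to 7086762 with a fold of 2.26 and a −log10 q of 4.32, and by fold the peaks ranked 24 and 94 of 1361. Replicate 2 had a single peak from 7086014 to 7086779, with its summit at 7086226, a fold of 2.62 and a −log10 q of 11.7, ranking 50 of 8608 by fold and 26 by q. The single interval of replicate 2 thus bridged the gap between the intervals of replicate 1. Peaks covered 30.4% of the 2168 bp body in replicate 1 and 35.3% in replicate 2, and 81.9% of the bases covered in replicate 1 were also covered in replicate 2. The summits of highest q in the lists lay 86 bp apart. Over the 859 protein-coding genes with a body peak in both lists, this distance had a median of 332 bp and quartiles of 120 and 688 bp. All peaks lay in the part of the gene with the higher coordinates, and the lower 1168 bp of the body held none.

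ERF12 (AT1G28360) encodes a repressor known for recruiting TOPLESS to the seed dormancy gene DOG1. Its replicate 1 peak on chromosome 1 ran from 9951886 to 9952142 with its summit at 9952003, a fold of 1.93 and a −log10 q of 2.66. In replicate 2 the peak ran from 9951838 to 9952472 with its summit at 9952007, a fold of 1.97 and a −log10 q of 4.87. The summits of the replicates were 4 bp apart, and the replicate 1 interval lay wholly within that of replicate 2. Coverage of the 1344 bp body was 19.1% in replicate 1 and 47.2% in replicate 2. By fold these were middling to high peaks of their lists, ranking 527 of 1361 and 1502 of 8608. The replicate 1 peak had a −log10 q under 3, so at that minimum ERF7 was the only member with a body peak in both lists.

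ERF11, the neighbour of ERF12 in the genome, encodes a repressor of ethylene synthesis genes. The space between the bodies of the pair was 2668 bp. No H2B-GFP peak touched the 1207 bp body of ERF11 or the 1 kb on either side in replicate 1 or replicate 2. The nearest peaks were 3631 and 3301 bp away in replicates 1 and 2, and both were those of ERF12, at the side of ERF12 that faces away from ERF11.

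RAP2.1 (AT1G46768) encodes a DREB-type factor that dampens cold and drought responses. Its strongest peaks lay outside the body, on the side with the higher coordinates. In replicate 1 the interval ran from 17267099 to 17268387 on chromosome 1, beginning 274 bp from the body, with a highest fold of 2.09, a −log10 q of 3.02 and 2 summits, at 17267394 and 17267998. In replicate 2 the interval from 17267218 to 17268227 began 393 bp from the body and also had 2 summits, at 17267487 and 17268105, with a fold of 3.27 and a −log10 q of 17.1. It ranked 3 of 8608 by fold and 7 by q, while the replicate 1 peak ranked 240 of 1361 by fold. All 1010 bp of the replicate 2 interval lay within the replicate 1 interval. The summits of highest q (17267394 and 17267487) were 93 bp apart, although in replicate 1 the other summit had the slightly higher fold (2.09 against 2.04). The replicate 1 interval reached 563 bp beyond the 1 kb window, and its far end was still 1797 bp short of the next annotated gene, AT1G46840.

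Only replicate 2 had peaks in the RAP2.1 body and on its other side. The body peak (17266126 to 17266641) had a fold of 1.89 and a −log10 q of 3.59 and covered 41.6% of the 1239 bp body. The peak on the other side (17264939 to 17265245) ended 340 bp before the body, with a fold of 1.77 and a −log10 q of 2.23. With these 3 peaks, 44.1% of the body and its 1 kb flanks was covered in replicate 2, against 22.4% in replicate 1, all of it in the flank. RAP2.1 was the only member within 3 Mb of the approximate centromere midpoint of its chromosome (2.17 Mb away). No other member had a peak in its 1 kb flanks that did not also lie in its body.

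**Figure D2:**
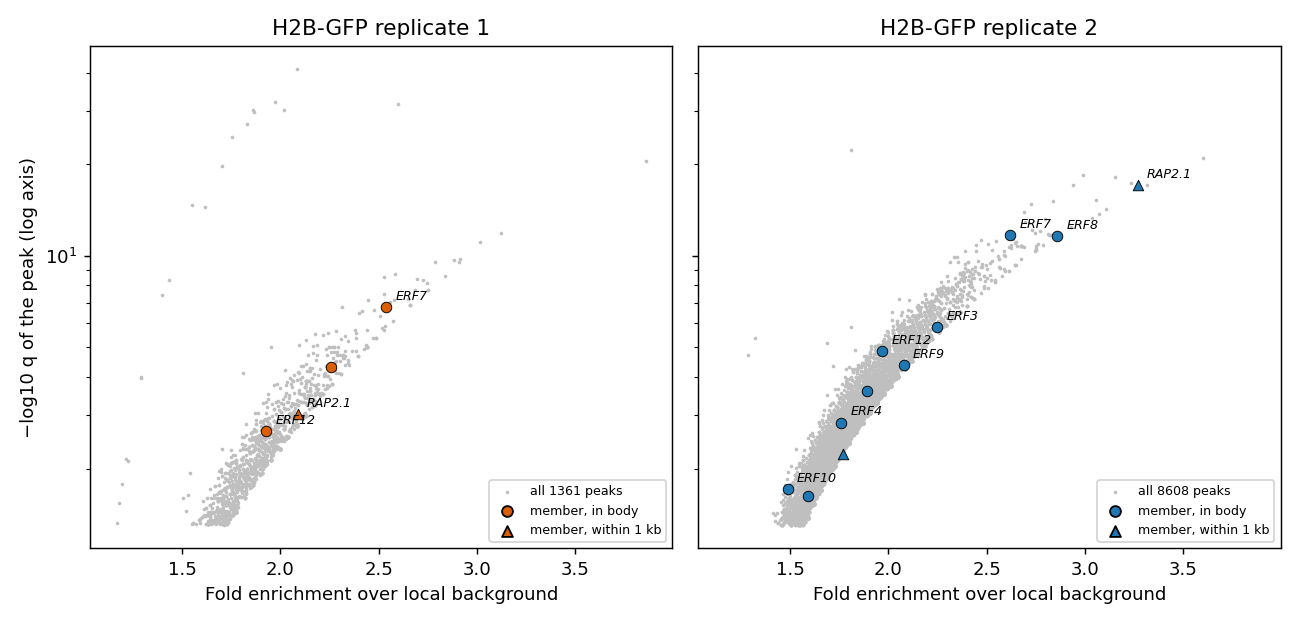
Fold enrichment (x axis, linear) against −log10 q (y axis, log scale) of every nuclear H2B-GFP peak, in grey, with the peaks at the 9 genes in colour, as circles in gene bodies and triangles within 1 kb. In replicate 2 the peaks of RAP2.1 (3.27, outside the body), ERF8 (2.86) and ERF7 (2.62) stand in the upper tail, while ERF10 (1.49) stands at the lower edge. RAP2.1 and ERF7 were picked for strong H2B peaks, so their place was known beforehand. The body peak of RAP2.1 has a fold of 1.89.

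Among the members with a body peak in replicate 2 alone, ERF8 had the strongest. ERF8 encodes a repressor that, like ERF4, takes part in leaf senescence. Its peak on chromosome 1 (19821566 to 19822120, summit at 19821784) had a fold of 2.86 and a −log10 q of 11.6, ranking 13 of 8608 by fold and 27 by q, and covered 52.2% of the 1063 bp body. In replicate 1 the nearest peak was 42.6 kb away. Of the 50 replicate 2 peaks with the highest fold, 36 overlapped a replicate 1 peak and 14 did not, and the ERF8 peak was among the 14. Over all replicate 2 peaks 9.61% overlapped a replicate 1 peak, so the lack of one at a strong peak was the less common case and at a weak peak the usual one.

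ERF3 and ERF4 are among the proteins in which the EAR motif was first described, and ERF4 is known to damp jasmonate and ethylene defence genes. ERF3 had 2 peaks on chromosome 1 in replicate 2. The stronger (18757885 to 18758261) had a fold of 2.25 and a −log10 q of 5.83, ranking 323 of 8608 by fold, and the weaker (18757482 to 18757733) had 1.59 and 1.62. Together they covered 36.2% of the 1737 bp body, while the nearest replicate 1 peak was 18.2 kb away. ERF4 had 1 peak on chromosome 3 (5121475 to 5122096) with a fold of 1.76 and a −log10 q of 2.83, close to the middle of the list (4148 of 8608 by fold). It covered 49.4% of the 1260 bp body, and the nearest replicate 1 peak was 16.9 kb away.

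ERF9, a repressor of defence genes against necrotrophic fungi, had the most widely covered body. Its peak on chromosome 5 (17806604 to 17807387) had 2 summits, with folds of 1.69 and 2.08 and −log10 q values of 2.82 and 4.38, and spread over 68.5% of the 1145 bp body. The nearest replicate 1 peak was 113 kb away, the farthest for any member. ERF10 had the weakest peak, on chromosome 1 (957232 to 957764), with a fold of 1.49 and a −log10 q of 1.71. It ranked 8504 of 8608 by fold, yet covered 41.6% of the 1280 bp body, and the nearest replicate 1 peak was 30.8 kb away. ERF10 is also the member with the closest neighbours, with gaps of 959 bp to AT1G03790 and 375 bp to AT1G03810, and neither space held a peak.

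All 3 body peaks of replicate 1 and all 9 of replicate 2 lay wholly inside the body, reaching across neither end. Among all protein-coding genes with a body peak in replicate 2, the strongest peak lay wholly inside the body in 92.2%, so this was the usual arrangement. The summit of the strongest peak fell between 25 and 75% of the body length in 7 of the 8 genes, the exception being ERF12 at 18.2% of the way from the lower end. Over all protein-coding genes this was 57.3%, and over the 9683 that are as long as the members (1063 to 2168 bp) it was 69.5%. It was 96.0% over the other AP2/ERF-named genes with a body peak in replicate 2. It was 100% over those of the A-5 DREB (5 genes), activator-type (8), group VII (3) and CBF and DREB2 (6) lists, and so not particular to the members. The AP2/ERF-named genes include the A-5 DREB and group VII genes and part of the activator-type and CBF and DREB2 genes, so these shares overlap. In the AP2 subfamily the summit fell in this middle part for 0 of the 2 genes with such a peak. The gene table holds neither strand nor exons, so it was not tested whether the bodies lack introns or which end of each gene the peaks lie nearer to.

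Covered shares ran from 35.3 to 68.5% in the 8 genes with a replicate 2 body peak, with a median of 44.4%. The median over all protein-coding genes with such a peak was 22.2% (quartiles 13.6 and 36.6%), and over those as long as the members it was 29.5% (20.6 and 44.4%). The genes as long as the members share their range, but had a median length of 1653 bp against 1260 bp for the members. Over the other AP2/ERF-named genes with such a peak the median was 38.1% (28.4 and 53.7%). It was 53.7% for the A-5 DREB genes and 40.7% for the activator-type genes. Group VII (59.3%) and the C2H2 genes with an EAR motif (59.4%) had 3 such genes each. Medians were lower for the CBF and DREB2 genes (28.4%), ethylene signalling (26.8%), the corepressors (15.5%) and the AP2 subfamily (11.0%). Cover of the members' size was thus found in some of the related lists and not in others. In replicate 1 the 30.4% of ERF7 and the 19.1% of ERF12 stood beside a median of 14.6% over 1118 genes and of 22.3% (quartiles 16.8 and 30.2%) over those as long as the members, so ERF12 lay below the latter. The members' body peaks in replicate 2 were 252 to 784 bp wide with a median of 555 bp, and 7 of the 9 were wider than the 435 bp median of the whole list. With ERF11 counted at 0, the median share over the 9 genes was 41.6% in replicate 2 and 0% in replicate 1.

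**Figure D3:**
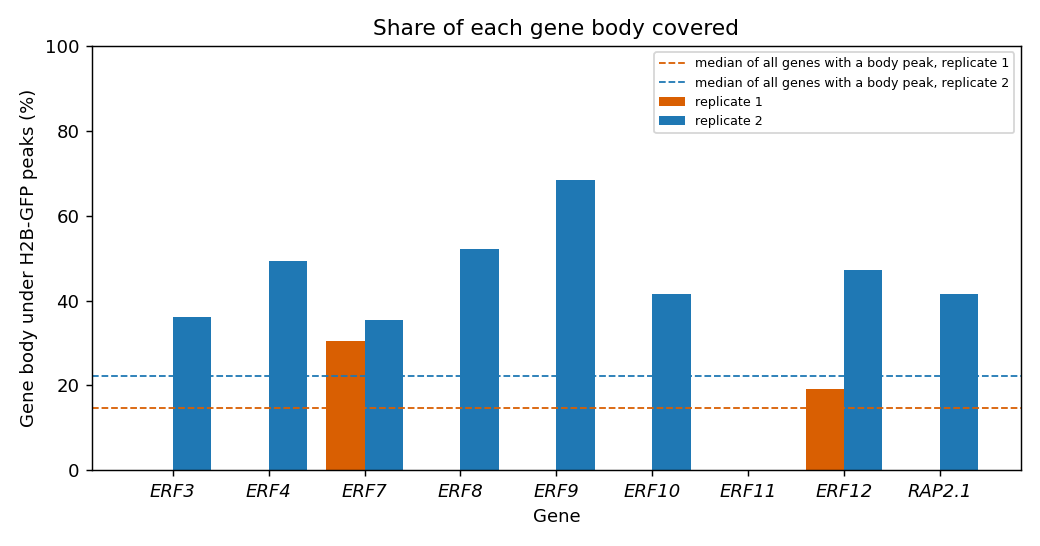
Share of each gene body under H2B-GFP peaks in replicate 1 and replicate 2 (bars, percent of the body), with dashed lines at the medians over all protein-coding genes that have a body peak in the same list (14.6 and 22.2%). In replicate 2 all bars but that of ERF11 stand above the dashed line, and in replicate 1 only ERF7 and ERF12 have bars.

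The order of the members by fold was not their order by coverage. ERF9, with the widest cover, ranked 812 of 8608 by fold, and ERF10 had the same 41.6% covered as RAP2.1 with a lower fold of its body peak (1.49 against 1.89). The strongest body peak of the 8 genes had a median fold of 2.03, and in 7 of the 8 it stood above the median rank of the list by fold. The median fold was 1.78 over all protein-coding genes with a body peak in replicate 2 and 1.79 over the other AP2/ERF-named genes. It was 1.99 for the C2H2 genes with an EAR motif, 1.89 for the A-5 DREB genes and 1.73 to 1.85 for the other related lists. When replicate 2 was reduced to its 1361 peaks of highest q, the length of the replicate 1 list, 5 members kept a body peak, namely ERF3, ERF7, ERF8, ERF9 and ERF12. This stood beside 4.57% of all protein-coding genes and 4.66% of those as long as the members. At the same list length replicate 1 had 2 of the 9, so the members' count differed between the replicates even then. ERF7 was picked for its strong H2B peak, so its part in these folds and counts was known beforehand.

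Body peaks were called more often in longer genes, in 11.5% of those of over 500 to 1000 bp and in 38.0% of those of over 5000 bp in replicate 2. The members are short. Among the protein-coding genes in their range of length the shares were 23.8% in replicate 2, 3.34% in replicate 1 and 2.63% in both. These were a little below the shares of all genes. Genes of that range had a median length of 1653 bp, against 1260 bp for the members. Among genes of over 1000 to 1500 bp the shares were 19.5% in replicate 2, 2.81% in replicate 1 and 2.1% in both.

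Related transcription factor genes were also often under H2B-GFP peaks in replicate 2. Of 40 other genes whose symbol or synonym is of the AP2/ERF kind, 25 (62.5%) had a body peak in replicate 2, 2 (5.0%) had one in replicate 1, and the same 2 had one in both. These 40 include the A-5 DREB and group VII genes treated below, and leave out family genes under other names, such as ORA59. In the full replicate 2 list a high share of genes with a body peak was thus not limited to the EAR-type members. With the 1361 strongest replicate 2 peaks the count was 3 of 40 (7.5%), near the 4.57% of all protein-coding genes. The members stood at 5 of 9 there, with ERF7, picked for its strong peak, among the 5. Neither the difference between 8 of 9 and 25 of 40 nor that between 5 of 9 and 3 of 40 was tested.

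The closest relatives of RAP2.1 are the 5 other DREB genes of group A-5 with an EAR motif. All 5 had a body peak in replicate 2 (background 25.2%), and 1 had one in replicate 1 (background 4.07%). That gene, RAP2.10 (AT4G36900, on chromosome 4), also had the highest mean fold of the other AP2/ERF-named genes called in both lists. Its replicate 1 peak (17389069 to 17389365) had a fold of 1.78 and a −log10 q of 2.13, and its stronger replicate 2 peak (17388898 to 17389384) had 2.40 and 7.19. The other AP2/ERF-named gene with a body peak in both lists was ERF38 (AT2G35700, on chromosome 2), with folds of 1.66 (15005271 to 15005647) and 1.70 (15005257 to 15005779). Among the other AP2/ERF-named genes, these were the ones most like ERF7 and ERF12 in pattern. The likeness used was a peak called in each of the 2 lists, which 859 protein-coding genes (3.13%) had in their bodies. At RAP2.10 and ERF38, as at ERF12, the replicate 1 interval also lay within a replicate 2 interval. Their mean folds were 2.09 for RAP2.10 and 1.68 for ERF38, beside 2.58 for ERF7 and 1.95 for ERF12, so RAP2.10 stood between these members and ERF38 below them.

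The activator-type genes of the ERF branch had body peaks in 8 of 15 in replicate 2 and in 0 of 15 in replicate 1. The group VII factors, which act in low oxygen, had them in 3 of 5 and 0 of 5, and the cold and drought factors of the CBF and DREB2 kind in 6 of 8 and 0 of 8. In the AP2 subfamily, which includes the floral gene AP2, the counts were 2 of 6 and 1 of 6 in replicates 2 and 1. The replicate 1 peak there, in TOE3, had no counterpart in replicate 2. Over all protein-coding genes the shares were 25.2% in replicate 2 and 4.07% in replicate 1. Of these lists the AP2 subfamily, at 33.3% in replicate 2, stood nearest to that background.

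EAR motifs also occur outside the AP2/ERF family. Among 8 C2H2 zinc finger genes with the motif, 3 (37.5%) had a body peak in replicate 2 and 1 (12.5%) in replicate 1. The shares over all protein-coding genes were 25.2% and 4.07%, and 8 genes are too few to tell the list from them. The 1 called in both lists was AZF2 (ZF2, AT3G19580, on chromosome 3), a repressor in abscisic acid and salt responses, with folds of 2.26 (6803367 to 6803653) in replicate 1 and 1.99 (6803774 to 6804163) in replicate 2. The intervals of the replicates did not overlap. Of the 11 corepressor genes that act with EAR motifs, 5 (45.5%) had a body peak in replicate 2 and 1 (9.09%) in replicate 1. These genes are long, with a median of 6336 bp. Among all protein-coding genes of over 5000 bp the shares were 38.0% in replicate 2 and 8.11% in replicate 1. The corepressor gene called in both lists was the histone deacetylase gene HDA6 (folds of 1.80 and 1.86), also with intervals that did not overlap.

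Genes of ethylene signalling upstream of the ERF factors had body peaks in 7 of 11 in replicate 2 and 1 of 11 in replicate 1. CTR1, the kinase that keeps the pathway off, had a body peak in both lists (folds of 1.80 and 1.91). EIN2, the membrane protein that CTR1 inhibits, had body peaks only in replicate 2, with a highest fold of 1.73, and a peak within 1 kb of its body in both lists, with a fold of 1.81 in replicate 1 and 1.47 in replicate 2. These genes are long, with a median of 3330 bp against 1260 bp for the members, and longer genes were called more often. Among all protein-coding genes of over 3000 to 5000 bp the shares were 31.7% in replicate 2 and 5.72% in replicate 1. The ethylene signalling genes stood at 63.6% and 9.09%, and the difference was not tested.

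**Figure D4:**
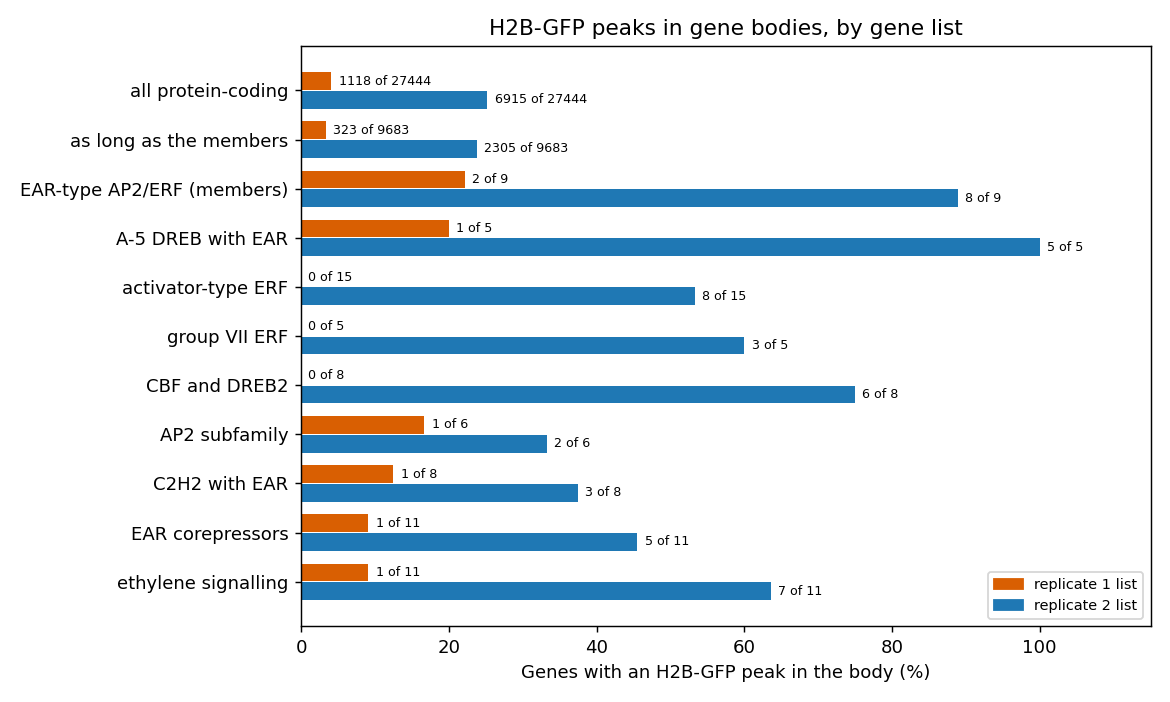
Percent of genes with an H2B-GFP peak in the body, in replicate 1 and replicate 2, for all protein-coding genes, those as long as the members, the 9 members and 8 related lists, with counts beside the bars. In replicate 2 the members (8 of 9) and the A-5 DREB relatives (5 of 5) have the longest bars. In replicate 1 the bars of the members (2 of 9), the A-5 DREB genes (1 of 5) and the AP2 subfamily (1 of 6) rest on 1 or 2 genes each. ERF7, 1 of the 2 members there, was picked for its strong H2B peak.

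GBPL3-GFP peaks were not called at any of the 9 genes. The count in the body or within 1 kb was 0 of 9 in each replicate, where the background was 0.0692% and 0.109% of all protein-coding genes in replicates 1 and 2. For ERF10 the nearest GBPL3 peak was 0.349 Mb away in both replicates. For RAP2.1 it was 2.18 Mb away in replicate 1 and 0.272 Mb in replicate 2, and for ERF7 1.33 Mb in both. With 87 and 81 nuclear peaks in the GBPL3 lists, and a background this low, a lack of GBPL3 at 9 genes was not detectable.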

How the data were processed

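Peak lists of 4 pulldown samples were used, 2 each of H2B-GFP and GBPL3-GFP; the inputs were not analysed here. The submitters' processing notes name the build TAIR10, BWA 0.7.12 and MACS2 2.1.0, without their options or the control used. The deposited lists hold, per peak, a fold enrichment (a linear ratio), −log10 p and −log10 q, and a score equal to 10 times the −log10 q. These are the authors' values and describe a peak within its own list. Several summits of an interval were counted as 1 peak, which took their highest fold and −log10 q. Peaks were placed on genes of the RefSeq table of TAIR10.1 (overlap of at least 1 bp) with Python 3.11.15 and pandas 2.3.3. The builds are not named alike: 92.8% of H2B replicate 2 summits lay in protein-coding genes, and 64.4% after a shift of 10 kb. Positions are the authors' peaks, counted from 1. Overlap counting was checked on simulated intervals. Replicates may be technical, and no p-value was computed. The members and the 8 related lists were chosen with earlier results of these data known. All members are named, and of each related list up to 3 genes with a peak in the body or within 1 kb in both replicates, by mean fold, and up to 5 such AP2/ERF-named genes with body peaks. TOE3 was named after its values were seen.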

Additional observations from a re-analysis of the deposited data

How the results depend on the processing

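The 2 members with a body peak in both replicates became 1 with peaks of a −log10 q of at least 3, and leaving out a replicate gave 2 to 8. The 3 members with a peak in the body or within 1 kb in both became 3 to 8 when a replicate was left out. The other alternatives (a −log10 q of at least 2, at least 10% covered, summits for intervals, the 1361 strongest replicate 2 peaks, flanks of 500 and 2000 bp) gave counts within 1.5 times of these. The median covered share, averaged over the replicates, was 24.7%, and 0 to 41.6% from a single replicate. The GBPL3 count was 0 with flanks of up to 5000 bp. No paired analysis was possible because no result comes from a test. Depth is unknown, and it can move both the length of a list and the absence of a peak.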
